A study of Homo sapiens with 8 samples.

Results

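The genes described here are the RNA and protein parts of the 7SK ribonucleoprotein and of positive transcription elongation factor b (P-TEFb), in human leukemia cells that had become resistant to an auxin-inducible degron and in the parental cells they came from. The 8 members were chosen by name for their place in this complex, with earlier results of these data known. They are the non-coding RNA *RN7SK*, its inhibitor proteins *HEXIM1* and *HEXIM2*, its stabilizing proteins *LARP7* and *MEPCE*, and the kinase *CDK9* with its cyclins *CCNT1* and *CCNT2*. All 8 have a single row each among the 60754 rows of the deposited table, and all 8 passed the filter for testing, which asked that the TPM (an expression value normalized for transcript length and library) reach 1 in some library, as it did for 15614 rows.

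RNA-seq was carried out on SEM cells, an established B-cell acute lymphoblastic leukemia line with a *KMT2A* rearrangement. The cells of every group carried a miniAID-mClover3 tag on both alleles of *CTCF* and expressed OsTIR1(F74G), the plant receptor that sends a miniAID-tagged protein to degradation once the auxin analog 5-Ph-IAA is present, together with Zeocin resistance from a lentiviral cassette driven by the MND promoter. The clones C17.2 and C3.2 were each grown from a single cell, and each gave 2 libraries of parental cells, which were untreated, and 2 of resistant cells. Resistant cells had been kept for 36 days in 1 μM 5-Ph-IAA with 100 μg/ml Zeocin and were off treatment for 48 h before harvest. In the study's account, which was not tested here, resistant cells of C17.2 held a truncated CTCF without the tag beside tagged full-length CTCF, which came back off treatment, and resistant cells of C3.2 held full-length CTCF with a missense change in the degron. Each resistant group is thus the outgrowth of 1 clone with its own mutation, and a difference between the clones cannot be told apart from a difference between these mutations. Nor can such a difference be told apart from one of library preparation. The labels number the libraries of each clone in a separate series of identifiers, so clone and series coincide. What a series stands for is not said in the sources used here. Nothing in the labels says that the libraries of a group came from separate cultures, so p-values measure only the spread between these libraries, which may be technical.

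P-TEFb, a dimer of CDK9 with cyclin T1 or cyclin T2, phosphorylates the pausing factors and the tail of RNA polymerase II and so releases the paused polymerase into elongation. A large pool of P-TEFb is held inactive in the cell by 7SK RNA, an abundant transcript of RNA polymerase III, on which a HEXIM protein blocks the kinase. MEPCE caps the 5′ end of 7SK with a methyl group, and LARP7 binds its 3′ end. In *KMT2A*-rearranged leukemia the fusion proteins join P-TEFb through the super elongation complex, which is why this balance is often studied in such cells.

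The sequence of the RNA, that of its most highly listed pseudogene and the promoter of the member that changed are given here, because the identity of the RNA decides which reads can be told apart and because *HEXIM1* carried the largest difference. *RN7SK* (ENSG00000283293.1) is an intronless gene of 328 bases at chr6:52995621-52995948 on the forward strand of GRCh38. Its first 300 bases (chr6:52995621-52995920) are written as DNA from the Gencode release 44 transcripts, and capitals mark its 3 GATC motifs (GAUC in the RNA), which start at bases 12, 41 and 63, in the 5′ part of the RNA that HEXIM proteins bind. The pseudogene *RN7SKP203* lies at chr2:76445079-76445410 on the reverse strand and holds the same 3 motifs, and its first 300 bases are those at chr2:76445111-76445410. It was identical to *RN7SK* at 289 of 341 alignment columns, or 84.8%, and their longest shared stretch was 143 bases.
RN7SK: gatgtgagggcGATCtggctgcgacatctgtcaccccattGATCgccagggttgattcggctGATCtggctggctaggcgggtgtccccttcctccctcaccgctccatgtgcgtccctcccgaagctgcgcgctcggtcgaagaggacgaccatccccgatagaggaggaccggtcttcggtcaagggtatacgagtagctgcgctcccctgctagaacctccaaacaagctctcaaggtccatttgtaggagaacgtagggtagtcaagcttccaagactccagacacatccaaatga
RN7SKP203: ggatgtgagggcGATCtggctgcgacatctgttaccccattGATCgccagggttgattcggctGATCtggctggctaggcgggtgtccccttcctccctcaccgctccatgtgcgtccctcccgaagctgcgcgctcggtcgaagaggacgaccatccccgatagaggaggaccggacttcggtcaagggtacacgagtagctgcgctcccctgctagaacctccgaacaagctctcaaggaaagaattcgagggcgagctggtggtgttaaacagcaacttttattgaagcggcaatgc
The last sequence is the 250 bases before the *HEXIM1* start from the RefSeq promoter table on GRCh38.p14, chr17:45148225-45148474 on the forward strand, with capitals for TATAAA and for CCAAT on either strand (read as ATTGG on the reverse strand).
HEXIM1 promoter: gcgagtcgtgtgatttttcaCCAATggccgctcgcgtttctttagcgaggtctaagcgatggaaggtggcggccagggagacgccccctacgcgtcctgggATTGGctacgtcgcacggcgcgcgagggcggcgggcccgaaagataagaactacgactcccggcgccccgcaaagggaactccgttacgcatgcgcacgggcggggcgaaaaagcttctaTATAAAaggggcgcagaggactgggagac

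Of the members, 7 had an entry in the promoter table, with 12 entries in all. TATAAA, searched on both strands from 250 before to 50 after the start, was present in 4049 of 35116 promoters (11.5%) and in 1 of the 12 entries, that of *HEXIM1*, where it began 29 bases before the start. CCAAT was present in 34.6% of promoters and in 6 of the 12 entries. CACGTG, which reads the same on both strands, was present in 7.26% of promoters and in 2 of the 12 entries, those of *MEPCE* and *CCNT1*. These motifs were found by their letters only.

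TPM values have the same sum in all libraries and keep no record of how many reads lay behind them, so depth is unknown here and counting error cannot be estimated. Before testing, each library was brought to a common scale (factors from 0.893 to 1.16) by trimmed mean log2 ratios. limma was then run on log2(scaled TPM + 1) for all 15614 rows, and a row was called when its Benjamini-Hochberg adjusted p was below 0.05. Of 10 B-lineage marker genes, 7 were at 10 TPM or more in all 8 libraries, whereas *DNTT* and *CD24* stayed under 1 TPM. Of 10 markers of T, myeloid, erythroid and stromal cells none reached 10 TPM in all 8 libraries, and 7 stayed under 1 TPM, of which 3 were listed at 0 throughout. The others were *CD33* at 1.65 to 9.02 TPM, *COL1A1* at 2.24 to 7.45 TPM and *LYZ* at 0.47 to 2.18 TPM. Summed B-lineage markers were between 835 and 887 TPM in C17.2 parental cells, between 779 and 783 TPM in its resistant cells, between 821 and 874 TPM in C3.2 parental cells and between 703 and 739 TPM in its resistant cells. Of the 8 tested, 4 were lower in each clone and 1 was higher in C3.2, and the lowest log2 fold changes were those of *IGLL1*, -2.16 in C17.2 and -2.35 in C3.2, and *CD79B*, -1.51 and -1.03. The share called was 50% in C17.2 and 62.5% in C3.2, beside 27.3% and 11.4% of all tested rows. Of the 3 tested markers of other cells, *CD33* fell by 1.14 and *COL1A1* rose by 0.93 in C17.2, and none passed in C3.2. The summed markers of other cells were between 4.65 and 13.2 TPM. The part of these markers in the results below was not tested. *CTCF* RNA was at 35.4 and 33.7 TPM in C17.2 parental cells, at 51.1 and 54.7 TPM in its resistant cells, and at 32.2, 32.3, 44.2 and 41.5 TPM in the parental and then the resistant libraries of C3.2. Its log2 fold changes of 0.44 in C17.2 and 0.34 in C3.2 both passed the threshold (limma adjusted p = 0.00079 and 0.0068), which says nothing of the level of the protein.

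*RN7SK* was the single row with the highest TPM in all 8 libraries, and its difference between resistant and parental cells did not pass the threshold in either clone. In C17.2 it was at 136110 and 129642 TPM in parental cells and at 121783 and 128693 TPM in resistant cells. In C3.2 it was at 117456 and 132108 TPM in parental cells and at 130787 and 148650 TPM in resistant cells. Both resistant libraries thus lay below both parental libraries in C17.2, whereas the groups overlapped in C3.2. On the scaled values the log2 fold change was -0.25 (95% CI -0.63 to 0.13) in C17.2 and 0.10 (95% CI -0.28 to 0.47) in C3.2, with adjusted p of 0.296 and 0.744 from limma. The interval in C17.2 therefore takes in both no change and a fall of 0.63 on the log2 scale. Its width depended on the model. The SE in C17.2 was 0.157 here, 0.097 without an intensity trend in limma (adjusted p = 0.121) and 1.66 without the filter on low values. In bulk RNA, fewer cells that make an RNA and less of it per cell cannot be told apart.

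As a share of the whole library, *RN7SK* took 13.6% and 12.96% of TPM in C17.2 parental cells and 12.2% and 12.9% in C17.2 resistant cells. It took 11.7% and 13.2% in C3.2 parental cells and 13.1% and 14.9% in C3.2 resistant cells. These shares moved in opposite directions, by -0.764 percentage points in C17.2 and 1.49 percentage points in C3.2. The mean change of 0.365 percentage points had p = 0.778 in an exact two-sided permutation test within clones, for which 36 arrangements exist and 0.0556 is the smallest p. Opposite changes in the clones cancel in this mean, so its p says nothing of either clone alone. The sign of the mean change rested on single libraries, since it was -0.00132 percentage points without C3.2 parental replicate 1 and -0.0816 without C3.2 resistant replicate 2. As a share of *RN7SK* plus protein-coding TPM, *RN7SK* was at 24.6% and 24.8% in parental and 22.4% and 22.9% in resistant cells of C17.2. In C3.2 this share was 23.86% and 25.43% in parental and 25.47% and 29.21% in resistant cells. The groups did not overlap in either clone, in opposite directions (exact permutation p = 0.944). *RN7SK* exceeded the next most abundant row between 1.26-fold and 3.09-fold and made up between 34.3% and 44.6% of the TPM of the small nuclear RNA class. The rows *RN7SL1* and *RN7SL2* share most of their sequence. Their sum was between 65028 and 167379 TPM over the libraries, at its highest above the highest *RN7SK* value of 148650 TPM. TPM of short RNAs depends on the effective length the quantification gives them, so these levels cannot be read as molecules beside the longer mRNAs.

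**Figure D1:**
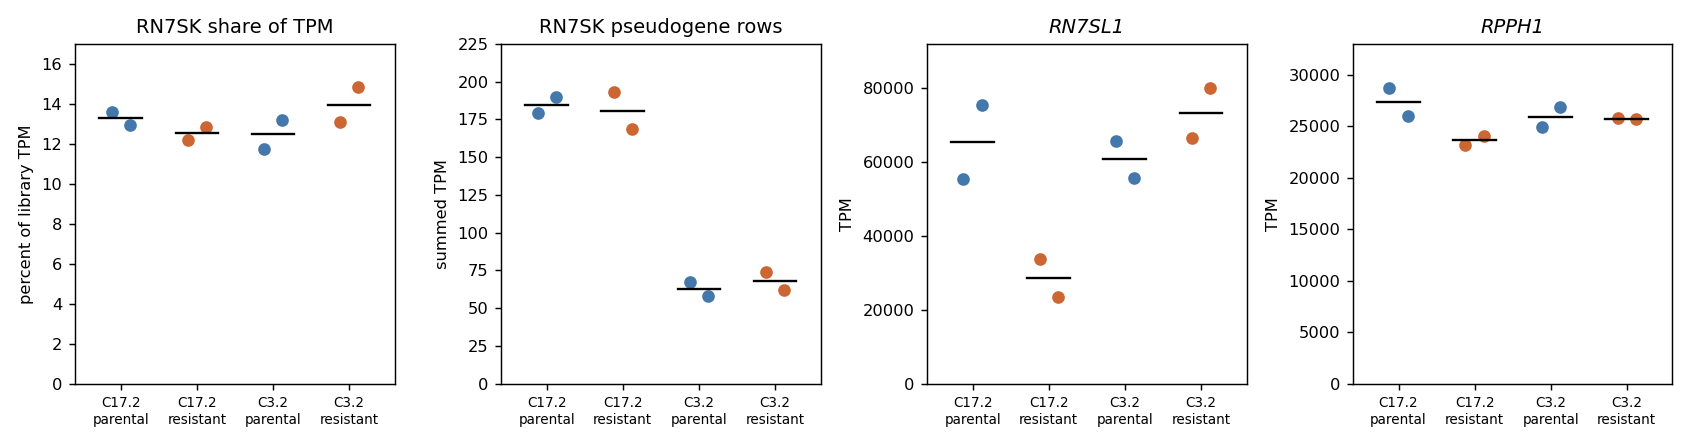
*RN7SK* and related structured RNAs by library, with 2 libraries (points) and their mean (line) per group, blue for parental and orange for resistant cells; the vertical axes are percent of library TPM, summed TPM of the *RN7SK* pseudogene rows, and TPM for *RN7SL1* and *RPPH1*. *RN7SK* lay between 11.7% and 14.9% of TPM in every library, while the pseudogene rows split by clone and *RN7SL1* was lowest in C17.2 resistant cells.

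The 2 HEXIM genes lie 8600 bases apart on chromosome 17 and encode related inhibitors of P-TEFb, and each had the largest log2 fold change among the members in one of the clones. *HEXIM1* (chr17:45148475-45152099, forward strand) was higher in the resistant cells of C17.2. It was at 7.10 and 6.20 TPM in C17.2 parental cells and at 12.7 and 13.3 TPM in C17.2 resistant cells. The means were 6.65 ± 0.636 and 13.04 ± 0.431 TPM (SD, n = 2), a ratio of 1.96 in deposited TPM and of 1.76 in scaled TPM, and the groups did not overlap. The log2 fold change was 0.73 (SE 0.070, 95% CI 0.56 to 0.90, limma adjusted p = 0.00086). This call was kept in 16 of 16 alternatives of scaling, filter, model and left-out library, with log2 fold changes between 0.68 and 0.88.

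In C3.2 *HEXIM1* was at 6.44 and 6.11 TPM in parental cells and at 8.26 and 7.18 TPM in resistant cells. Both resistant libraries were above both parental ones, but the log2 fold change of 0.20 (SE 0.070, 95% CI 0.034 to 0.37) did not pass the threshold (limma adjusted p = 0.122). The change in C17.2 exceeded that in C3.2 by 0.52 (SE 0.099) on the log2 scale, with an adjusted p of 0.0249 from limma for the difference itself. This difference was the only one of the 8 members past the threshold, where 9.9% of all tested rows passed (4.91% with a larger and 4.99% with a smaller value in C17.2). Without 7 of the 8 libraries in turn, all but C3.2 resistant replicate 1, it was between 0.47 and 0.58 with limma adjusted p between 0.0605 and 0.0967, and without the filter on low values the adjusted p was 0.0527.

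*HEXIM2* (chr17:45160700-45170040, forward strand) was the lowest member. It was at 3.46 and 2.89 TPM in C17.2 parental cells and at 4.05 and 3.41 TPM in C17.2 resistant cells, which overlapped. In C3.2 it was at 2.87 and 3.29 TPM in parental cells and at 4.44 and 5.14 TPM in resistant cells, which did not overlap. The ratio of mean TPM was 1.17 in C17.2 and 1.56 in C3.2, and the log2 fold changes were 0.06 (95% CI -0.24 to 0.35, limma adjusted p = 0.777) and 0.46 (95% CI 0.17 to 0.75, limma adjusted p = 0.0606). *HEXIM2* thus had the larger value in C3.2 and *HEXIM1* in C17.2, but the difference of the *HEXIM2* changes, -0.40 on the log2 scale, did not pass (limma adjusted p = 0.193). When TPM was rescaled over protein-coding genes only, *HEXIM1* at 0.29 and *HEXIM2* at 0.54 passed the threshold in C3.2 (limma adjusted p = 0.0374 and 0.0338). This rescaling shifted the median log2 fold change of all tested rows in C3.2 by 0.085. It called 1703 rows higher and 725 lower there, against 696 and 1077 with the scaling between libraries.

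An antisense transcript, *HEXIM2-AS1* (named AC138150.1 in the table), overlaps 1700 bases of the *HEXIM1* gene span and 839 bases of that of *HEXIM2*. The strand setting of the counting is not given in the sources used here, so reads of the antisense pair may not have been told apart. The antisense row was at 2.96 and 2.15 TPM in C17.2 parental cells and at 2.42 and 1.81 TPM in its resistant cells, so it did not share the direction of *HEXIM1* in that clone. In C3.2 it was at 1.41 and 2.10 TPM in parental cells and at 2.75 and 2.7 TPM in resistant cells, above in both, as were the HEXIM genes there. Neither difference passed the threshold (limma adjusted p = 0.249 and 0.172).

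**Figure D2:**
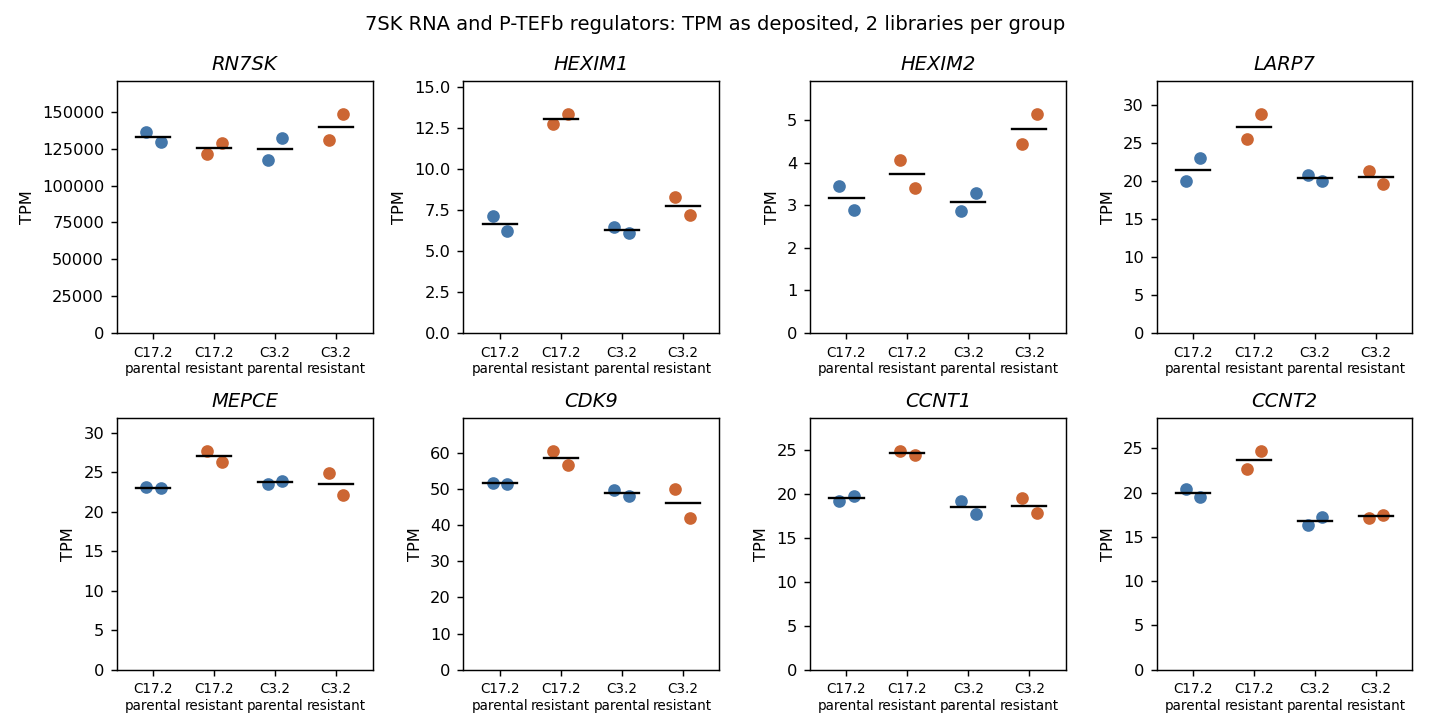
TPM as deposited of each member by group, one panel per gene with its own vertical axis from 0, points for the 2 libraries of a group and a line for their mean, blue for parental and orange for resistant cells. *HEXIM1* in C17.2 resistant cells, at 12.7 and 13.3 TPM, stands above its other 6 libraries, which reach at most 8.26 TPM.

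LARP7 and MEPCE keep 7SK stable, and neither gene passed the threshold in either clone. *LARP7* (chr4:112637077-112657696, forward strand) was at 20.0 and 23.0 TPM in C17.2 parental cells and at 25.5 and 28.8 TPM in its resistant cells, and at 20.8, 20.0, 21.4 and 19.6 TPM in the 2 parental and 2 resistant libraries of C3.2. *MEPCE* (chr7:100428322-100434126, forward strand) was at 23.1 and 23.0 TPM in C17.2 parental cells, at 27.7 and 26.3 TPM in its resistant cells, and at 23.5, 23.9, 24.9 and 22.2 TPM in the same order in C3.2. Both genes were higher in the resistant libraries of C17.2 as deposited, but after scaling between libraries their groups overlapped there. The log2 fold changes on scaled values were 0.17 (95% CI -0.07 to 0.41) for *LARP7* and 0.06 (95% CI -0.08 to 0.21) for *MEPCE* in C17.2, and -0.06 and -0.08 in C3.2, with limma adjusted p between 0.251 and 0.746 over these 4 values. *MEPCE* shares 671 bases of its span with the antisense gene *ZCWPW1*, whose row reached at most 4.34 TPM.

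CDK9 is the kinase of P-TEFb, and its gene (chr9:127785679-127790792, forward strand) was the highest protein-coding member. It was at 51.7 and 51.4 TPM in C17.2 parental cells and at 60.6 and 56.6 TPM in its resistant cells. It was at 49.6 and 48.1 TPM in C3.2 parental cells and at 50.1 and 41.9 TPM in its resistant cells. Scaled between libraries, the groups overlapped in C17.2, and both resistant libraries lay below both parental ones in C3.2. The log2 fold changes were 0.02 (95% CI -0.17 to 0.22, limma adjusted p = 0.863) and -0.16 (95% CI -0.35 to 0.04, limma adjusted p = 0.265).

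The cyclins T bind CDK9 and activate it, and *CCNT1* (chr12:48688458-48716998, reverse strand) and *CCNT2* (chr2:134918235-134959342, forward strand) were close to each other in level. *CCNT1* was at 19.3 and 19.8 TPM in C17.2 parental cells, at 25.0 and 24.5 TPM in its resistant cells, and at 19.3, 17.8, 19.6 and 17.8 TPM in the parental and then the resistant libraries of C3.2. *CCNT2* was at 20.4 and 19.6 TPM in C17.2 parental cells, at 22.7 and 24.8 TPM in its resistant cells, and at 16.4, 17.3, 17.18 and 17.5 TPM in C3.2. Both were above their parental libraries in the resistant cells of C17.2, as deposited and scaled, and overlapped in C3.2. The log2 fold changes on scaled values were 0.17 (95% CI -0.003 to 0.34, limma adjusted p = 0.133) and 0.08 (95% CI -0.05 to 0.21, limma adjusted p = 0.323) in C17.2. In C3.2 they were -0.05 and -0.02 (limma adjusted p = 0.689 and 0.815).

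Counted together, 1 of the 8 members passed the threshold in C17.2, where 27.3% of all tested rows did (13.4% higher and 13.9% lower). None passed in C3.2, where 11.4% of all tested rows did (4.46% higher and 6.9% lower). Before adjustment, the limma p in C3.2 was 0.0256 for *HEXIM1* and 0.0079 for *HEXIM2*. How many of all tested rows lay as low before adjustment was not counted, so no excess among the members can be read from these values. On scaled values 3 members were above their parental libraries in both resistant libraries of C17.2, against 33.3% of tested rows, and 1 was below, against 32.7%. In C3.2, 2 members were above, against 27.8% of tested rows, and 2, *MEPCE* and *CDK9*, were below, against 28.1%. The median log2 fold change of the members was 0.07 in C17.2 and -0.04 in C3.2, beside 0 over all tested rows in each clone. The share of members that passed in C17.2, 12.5%, was thus below that of all tested rows.

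How many members passed in C17.2 depended on the scaling. On TPM as deposited, which shifts the median log2 fold change of all tested rows by 0.13 in C17.2, 5 members passed. These were *HEXIM1* at 0.88, *LARP7* at 0.33, *CCNT1* at 0.32, *CCNT2* at 0.23 and *MEPCE* at 0.22, with limma adjusted p between 0.0011 and 0.0496. The same scaling called 3849 rows higher and 1279 lower, against 2094 and 2167 with the scaling between libraries. On TPM rescaled over protein-coding genes, *HEXIM1* and *CCNT1* passed in C17.2. There the median of all tested rows shifted by 0.069, and 3133 rows were called higher and 1723 lower.

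**Figure D3:**
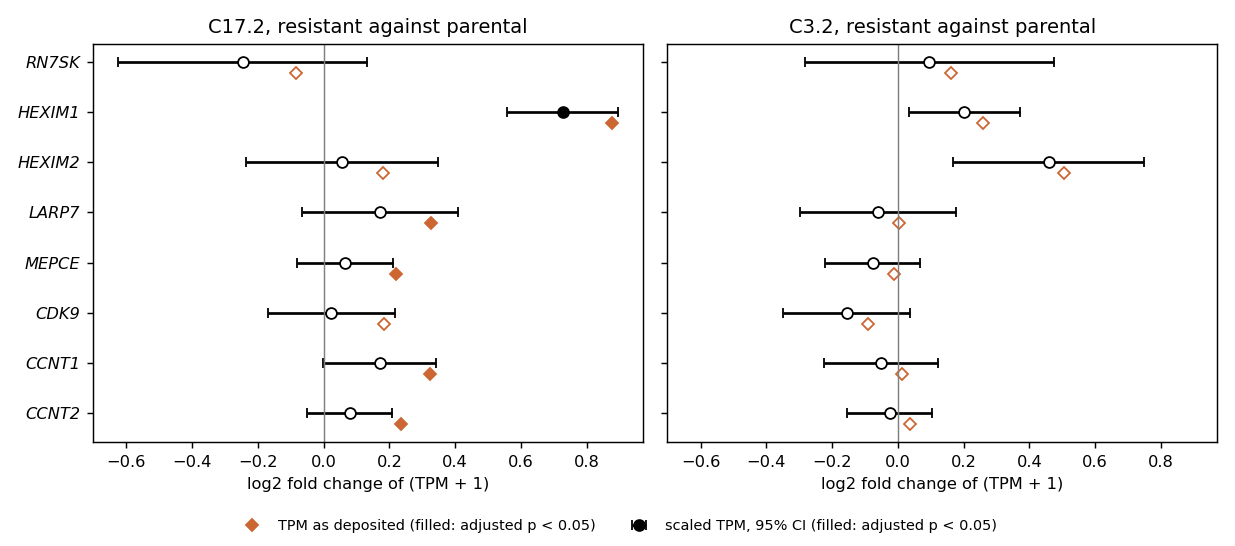
Log2 fold change of each member, resistant against parental, in C17.2 (left) and C3.2 (right); circles with 95% confidence intervals are scaled TPM, diamonds are TPM as deposited, and filled symbols have a limma adjusted p under 0.05. In C17.2 only *HEXIM1* is filled on scaled TPM and 5 members are filled on deposited TPM, while none is filled in C3.2.

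Because TPM is per length, the levels of the protein-coding members can be set against each other within a library, where no scaling between libraries enters. *CDK9* was the highest of the 7 in every group, with means from 46.0 to 58.6 TPM, and *HEXIM1* and *HEXIM2* were the 2 lowest. *MEPCE*, *LARP7*, *CCNT1* and *CCNT2* lay between, with means from 16.8 to 27.2 TPM. Their order was the same in both groups of C3.2 and differed between the groups of C17.2. In C17.2 parental cells *LARP7* (21.5 ± 2.12 TPM, SD, n = 2) did not differ beyond its spread from *MEPCE* (23.0 ± 0.120 TPM) or *CCNT2* (20.0 ± 0.594 TPM).

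The ratio of *HEXIM1* and *HEXIM2* together to *CDK9* was 0.204 and 0.177 in C17.2 parental cells and 0.277 and 0.296 in its resistant cells. It was 0.188 and 0.195 in C3.2 parental cells and 0.253 and 0.294 in its resistant cells. All 4 resistant libraries exceeded all 4 parental libraries, but the difference did not pass its test. The ratio was 1.50-fold higher in C17.2 and 1.43-fold higher in C3.2, with p = 0.0556 in the exact two-sided permutation test, the smallest p this design allows, and 0.167 after adjustment over the 6 ratios, so it could not reach the threshold. Of the 3 genes in this ratio, *HEXIM1* passed its own test in C17.2 and none did in C3.2.

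The ratio of *HEXIM1* to *HEXIM2* was 2.05 and 2.15 in C17.2 parental cells, 3.14 and 3.91 in its resistant cells, 2.24 and 1.86 in C3.2 parental cells, and 1.86 and 1.40 in its resistant cells. It was thus 1.67-fold as high in the resistant cells of C17.2 and 0.790-fold as high in those of C3.2, with p = 0.5 in the exact permutation test over both clones. That test averages the changes of the clones, so opposite ones cancel and its p says nothing of either clone alone. Within 1 clone the smallest p of such a test is 0.333. *CCNT1* and *CCNT2* together were between 0.719 and 0.869 of *CDK9*, with the resistant libraries above the parental ones within each clone, by 1.08-fold in each (exact permutation p = 0.0556, adjusted 0.167). *CCNT1* to *CCNT2* was between 0.944 and 1.17 (p = 0.722) and *LARP7* to *MEPCE* between 0.840 and 1.10 (p = 0.444), both by the exact permutation test. *RN7SK* to *LARP7* was between 4462 and 7569 in TPM, 0.744-fold as high in the resistant cells of C17.2 and 1.12-fold as high in those of C3.2 (exact permutation p = 0.444, again over opposite changes).

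**Figure D4:**
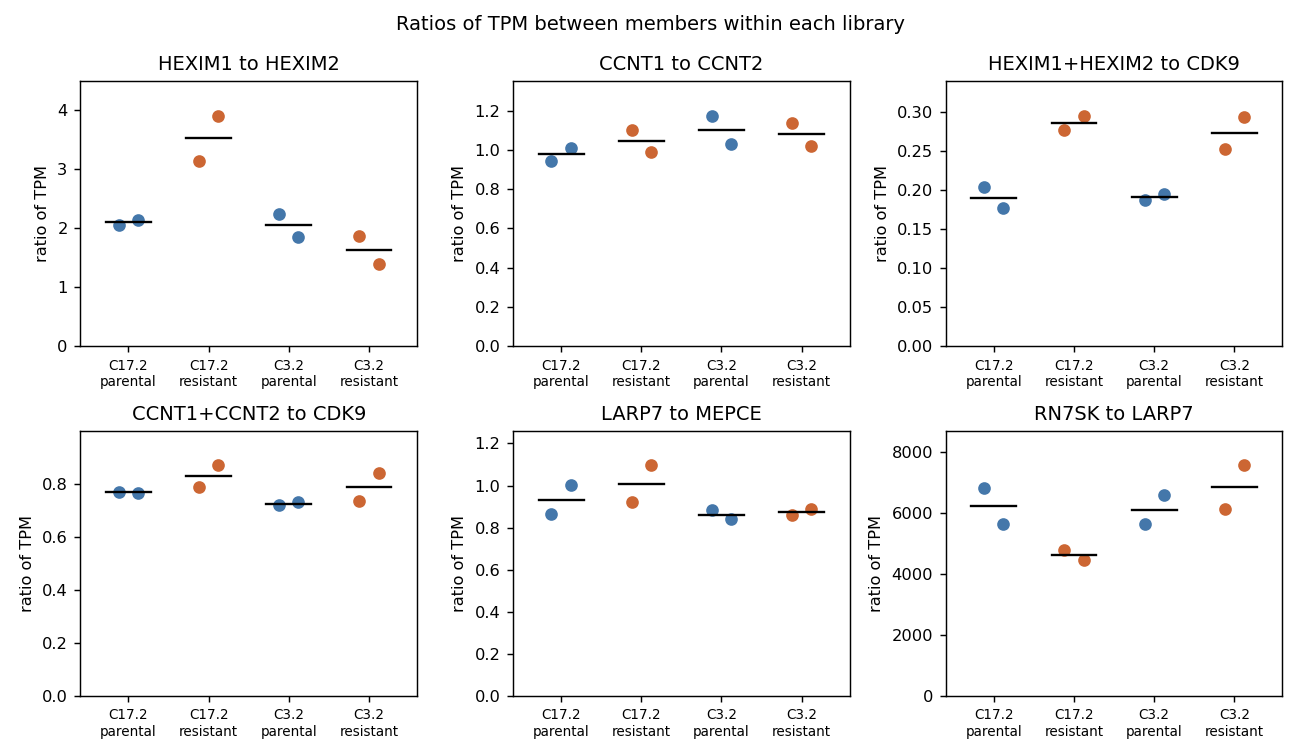
Ratios of TPM between members within each library, one panel per ratio with its own vertical axis from 0, points for the 2 libraries of a group and a line for their mean, blue for parental and orange for resistant cells. The ratio of HEXIM genes to *CDK9* lies between 0.177 and 0.204 in the 4 parental libraries and between 0.253 and 0.296 in the 4 resistant libraries.

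*RN7SK* is accompanied in the genome by many partial copies, and the table lists 293 rows named as its pseudogenes. Of these, 210 were listed at 0 in all libraries and 28 reached 1 TPM. None of the 28 passed the threshold in either clone, where 27.3% of all tested rows passed in C17.2 and 11.4% in C3.2. Their summed TPM was between 169 and 193 in the libraries of C17.2 and between 57.9 and 74.0 in those of C3.2, which was between 0.0417% and 0.158% of *RN7SK*, so adding them left its share at 11.8% to 14.9%. *RN7SKP71* was at 23.8 to 25.0 TPM in C17.2 and at most 0.49 TPM in C3.2, and *RN7SKP203* was at 39.9 to 51.0 TPM in C17.2 and at 4.63 to 7.09 TPM in C3.2. The labels number the libraries of each clone in a separate series of identifiers, so a clone difference and a preparation difference cannot be told apart. Of the 229 windows of 100 bases in *RN7SK*, 119 also occur without mismatch in at least 1 of the pseudogene transcripts and all 229 in RF00100, a second entry over the same locus listed at 0 to 44.9 TPM, while 0 occur in any other transcript of Gencode release 44.

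In the other RNA polymerase III and structured RNAs, 11 of 13 rows were tested, 1 was higher and 2 were lower in C17.2, and none passed in C3.2. The share called in C17.2, 27.3%, was the same as that of all tested rows. *RN7SL1*, an RNA of the signal recognition particle, was at 55296 and 75568 TPM in C17.2 parental cells and at 33809 and 23374 TPM in its resistant cells (log2 fold change -1.36, limma adjusted p = 0.013). This call was lost without 3 of the 4 libraries of C17.2 (all but resistant replicate 1). With a library left out, the log2 fold change was between -1.65 and -1.07. The call was also lost without the filter on low values and with each clone fitted alone, with limma adjusted p up to 0.402. *RN7SL1* shares most of its sequence with *RN7SL2*. *RPPH1*, the RNA of RNase P, fell by 0.37 on the log2 scale in C17.2 (limma adjusted p = 0.0251). This call was lost without 6 of the 8 libraries and under 5 of 8 other alternatives, and its sign was reversed, at 0.37, under quantile normalization. *RNU6ATAC*, a spliceosomal RNA, rose by 0.23 in C17.2 (limma adjusted p = 0.041), a call lost without 7 of the 8 libraries and under 3 of 8 other alternatives. Over the 8 libraries the highest *RN7SK* value was 1.27 times the lowest, against 1.24 times for *RPPH1*. It was 3.42 times for *RN7SL1*, 2.24 times for *RN7SL2* and 2.57 times for the sum of these 2 rows. *RN7SL2* had a log2 fold change of -0.48 in C17.2 and did not pass (limma adjusted p = 0.432).

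The lists of genes that work with P-TEFb were described in the same way. In the super elongation complex, which brings P-TEFb to paused genes, 10 of 11 genes were tested and 5 were lower and none higher in C17.2, where 13.9% of all tested rows were lower and 13.4% higher, with a median log2 fold change of -0.24 beside 0 over all tested rows. In C3.2, 1 was lower (median -0.12), against 6.9% of all tested rows. *ELL3*, an elongation factor, was at 30.1 and 25.9 TPM in C17.2 parental cells and at 15.9 and 16.0 TPM in its resistant cells, and at 22.8, 25.0, 17.9 and 19.0 TPM in the parental and then the resistant libraries of C3.2. It fell by 0.92 on the log2 scale in C17.2 and by 0.42 in C3.2 (limma adjusted p = 0.00046 and 0.0184), and the groups did not overlap in either clone. *EAF2*, a partner of the ELL proteins, fell by 0.61 and *ELL2* by 0.57 in C17.2 (limma adjusted p = 0.0029 and 0.0295). The other 2 lower genes, named after their values were seen, were *AFF3* and *AFF1*, at -0.42 and -0.21 (limma adjusted p = 0.0042 and 0.0356). The count of lower genes depended on the scaling, since neither *ELL2* nor *AFF1* passed on TPM as deposited. The *AFF1* row does not resolve the fusion transcript of SEM cells from the normal gene.

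In the phosphatases, helicases and RNA-binding proteins that release P-TEFb or bind 7SK in its place, all 14 genes were tested, and 6 were higher and none lower in C17.2 (median log2 fold change 0.16), where 13.4% of all tested rows were higher. In C3.2, 1 was lower (median -0.05), or 7.14% of the list, where 6.9% of all tested rows were lower. *JMJD6*, a dioxygenase that acts in P-TEFb release, was at 8.26 and 7.87 TPM in C17.2 parental cells and at 12.9 and 12.5 TPM in its resistant cells, a rise of 0.45 on the log2 scale (limma adjusted p = 0.0063). *HNRNPA2B1* rose by 0.33 and *SRSF1*, a splicing factor, by 0.31 (limma adjusted p = 0.0336 and 0.0029). *HNRNPA1*, which binds free 7SK, fell by 0.54 in C3.2 (limma adjusted p = 0.0208) and was at -0.16 in C17.2.

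Among the pausing factors and other substrates of P-TEFb, all 8 were tested, with 2 higher and 1 lower in C17.2, or 37.5% beside 27.3% of all tested rows. In C3.2, 1 was higher, or 12.5% beside 11.4% of all tested rows. *SUPT4H1*, a subunit of the pausing factor DSIF, was at 37.7 and 35.2 TPM in C17.2 parental cells, at 68.8 and 69.6 TPM in its resistant cells, and at 40.7, 41.8, 53.3 and 48.5 TPM in C3.2 in the same order. It rose by 0.75 on the log2 scale in C17.2 and by 0.23 in C3.2 (limma adjusted p = 0.0001 and 0.0192). *NELFA*, a subunit of the negative elongation factor, fell by 0.49 and *POLR2A*, the large subunit of RNA polymerase II, rose by 0.20 in C17.2 (limma adjusted p = 0.0065 and 0.0313). Of the 9 other transcriptional kinases and cyclins 1 passed in C17.2, or 11.1% beside 27.3% of all tested rows, and none in C3.2. That gene was *CDK8*, which fell by 0.34 in C17.2 (limma adjusted p = 0.037). This call was lost without 7 of the 8 libraries, all but C17.2 parental replicate 2, with a value of -0.23 without C17.2 parental replicate 1, and under 5 of 8 other alternatives.

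Of the 6 tested relatives of LARP7 and MEPCE, *LARP4* rose by 0.32 and *LARP4B* fell by 0.25 in C17.2 (limma adjusted p = 0.0167 and 0.0295), and none passed in C3.2. The share called in C17.2 was 33.3%, beside 27.3% of all tested rows. Of the 21 promoter factors of *RN7SK* and subunits of RNA polymerase III, 3 were higher and 1 was lower in C17.2, or 19.0% beside 27.3% of all tested rows, with a median log2 fold change of 0.00344, and none passed in C3.2. The largest of these changes were those of *SNAPC5*, of the complex that binds small nuclear RNA promoters, at 0.38, and of the polymerase subunits *POLR3F* at 0.36 and *POLR3C* at -0.28 (limma adjusted p = 0.0066, 0.0124 and 0.0318). Of the 20 calls named for C17.2 in these lists and the structured RNAs, 5 were kept in all 16 alternatives, those of *ELL3*, *EAF2*, *AFF3*, *SRSF1* and *SUPT4H1*. With all libraries kept, there were 8 alternatives of scaling, pseudocount, filter and model. The calls of *AFF1* and *LARP4B* were lost under 4 of them each, with limma adjusted p up to 0.652 and 0.385. That of *POLR3C* was lost under 3 (limma adjusted p up to 0.301), and those of *ELL2*, *HNRNPA2B1* and *POLR2A* under 2 each. The calls of *JMJD6* and *SNAPC5* were lost without C17.2 parental replicate 1, and that of *NELFA* without C17.2 resistant replicate 2. Those of *LARP4*, *POLR3F* and *POLR3C* were lost without any 1 of the 4 libraries of C17.2, and that of *POLR2A* without 3 of these, all but resistant replicate 2. Those of *ELL2*, *AFF1* and *HNRNPA2B1* were lost without any 1 of the 4 libraries of C17.2 or of the 2 parental libraries of C3.2, and that of *LARP4B* without 5 of the 8 libraries, these 6 less C17.2 parental replicate 1. Neither call shared with C3.2 was kept there without C3.2 parental replicate 1 or 2, where the limma adjusted p rose to at most 0.111 for *ELL3* and 0.0936 for *SUPT4H1*, and the *HNRNPA1* call was lost without 6 of the 8 libraries, with limma adjusted p up to 0.134.

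**Figure D5:**
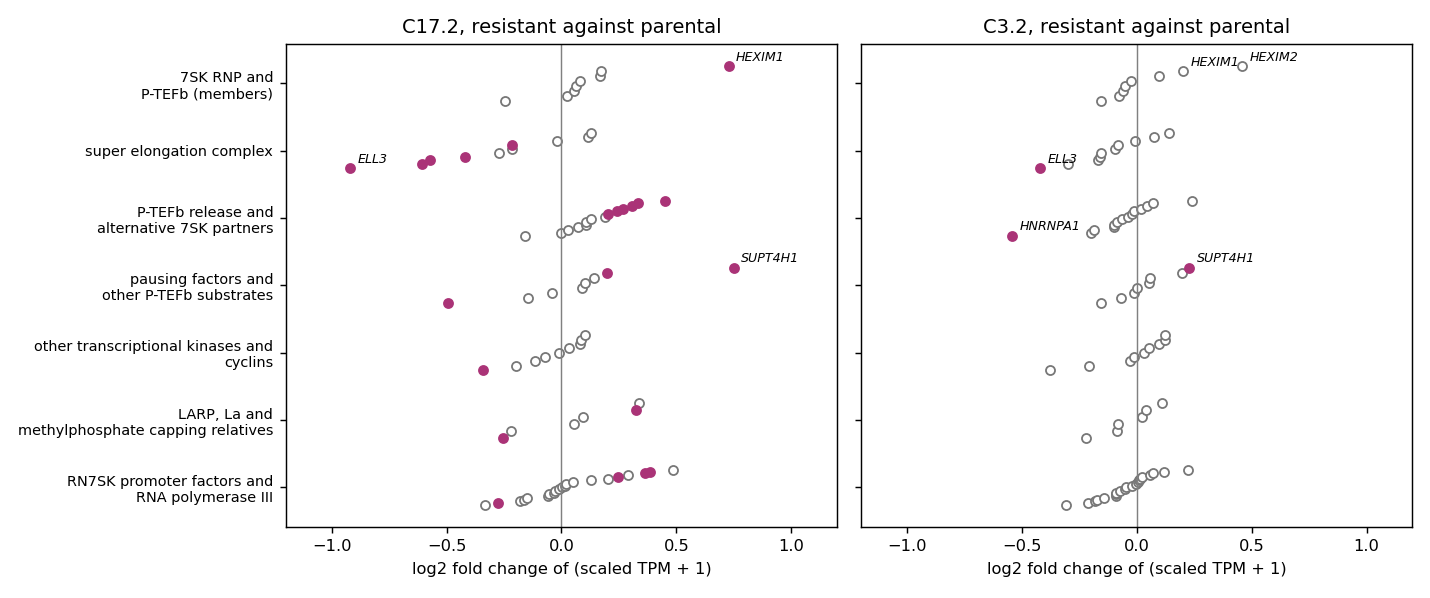
Log2 fold change of scaled TPM, resistant against parental, for each tested gene (point) of the members and of 6 lists of partner genes, in C17.2 (left) and C3.2 (right); filled points have a limma adjusted p under 0.05. In C17.2 the super elongation complex list has 5 filled points below 0, the release list 6 above 0 and the members 1, *HEXIM1*.

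The rows most like a member were sought among 7002 tested rows with a mean of at least 10 TPM, by the root-mean-square difference of centered log2(scaled TPM + 1) over the 8 libraries. The closest to *HEXIM1* were *ZNF106* and *STAG1*, at 0.0566 and 0.0581 on the log2 scale. The closest to *RN7SK* were *SPTLC2* and *ANXA2R*, at 0.0424 and 0.0538. This is a likeness of profile over 4 groups only, and says nothing of a shared control.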

How the data were processed

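The data are RNA-seq of the parental and the resistant cells of clones C17.2 and C3.2, with 2 libraries per group and 8 in all. The authors made libraries of total RNA after ribosomal depletion (Kapa HyperPrep with RiboErase), trimmed the reads (TrimGalore 0.6.3), mapped them to GRCh38.p13 (STAR 2.7.9a) and estimated gene abundance with Gencode release 31 annotation (RSEM 1.3.1). The deposited values are TPM of each gene in each library, and libraries were not scaled to one another. The methods describe paired-end reads and the labels single-end reads, and the strand setting of the counting is not given in the sources used here. TPM keeps no depth, so the precision of a library cannot be given.

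Of 60754 rows, the 15614 that reached a TPM of 1 in any library were tested. Each library was scaled by its average log2 ratio to the mean of all libraries, leaving out the outer 30% of ratios and 5% of mean values on both sides. Log2(scaled TPM + 1) was fitted in limma 3.58.1 (R 4.3.3) in 1 model of the 4 groups, with an intensity trend and a two-sided Benjamini-Hochberg threshold of 0.05 over all tested rows. limma-voom, which the authors used, works on counts and was not run on these TPM. Shares and ratios were compared by an exact permutation test within clones. The fit was tested on simulated data with 200 of 15614 rows changed by a log2 value of 1 in C17.2, and it found 96% of these, while 4.48% of its calls were false. The simulated noise was independent between libraries, with the spread estimated by the fit itself, and scaling between libraries was not simulated. The false share in the real data, where scaling matters and replicates may be technical, is thus not known from it. The members and the gene lists were chosen with earlier results of these data known. Some genes of the lists are not reported here and were left out of the lists' counts. From each list, the genes named were those past the threshold in both clones and, per clone, up to 3 with the largest change among those past it, and the likeness of profiles was given for *RN7SK* and for members past the threshold. Positions and transcript sequences came from Gencode release 44 on GRCh38 and promoters from RefSeq. Alternatives in scaling, pseudocount, filter, model and left-out library were tried. Python 3.11.15, pandas 2.3.3, numpy 2.4.6 and matplotlib 3.10.9 were used.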

Additional observations from a re-analysis of the deposited data

Results flagged for a closer look

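In the members and the lists of partner genes, 7 changes differed between the clones by the interaction term of the limma model, as did 9.9% of all tested rows. The share was 12.5% of the members, 10% of the super elongation complex, 21.4% of the release list and 12.5% of the pausing list. It was 4.76% of the *RN7SK* promoter factors and polymerase subunits, and 0% of the other kinases and cyclins and of the relatives of LARP7 and MEPCE. *HEXIM1* differed by 0.52 on the log2 scale, rising in C17.2 and not passing in C3.2 (limma adjusted p = 0.0249). *SUPT4H1* also differed by 0.52 (limma adjusted p = 0.0047), with a rise past the threshold in both clones, and this was kept in 15 of 15 alternatives. *ELL3* fell further in C17.2, with a difference of -0.50 (limma adjusted p = 0.0334). *SRSF2*, a splicing factor, and *DHX9*, a helicase, both of the release list and named after their values were seen, differed by 0.34 and 0.33 (limma adjusted p = 0.0154 and 0.0247). *SNAPC5* differed by 0.39 and *SRSF1* by 0.26, both higher in the resistant cells of C17.2 (limma adjusted p = 0.0474 and 0.0383). The calls of *HEXIM1* and *ELL3* were lost without 7 of the 8 libraries in turn, those of *SRSF1* and *DHX9* without 6, that of *SRSF2* without 3 and that of *SNAPC5* without any 1 of the 8. With all libraries kept, those of *ELL3*, *DHX9*, *SRSF1* and *SNAPC5* were lost under 3 of 7 alternatives each. That of *HEXIM1* was lost under 1 and that of *SRSF2* under 0.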

How the results depend on the processing

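*HEXIM1* in C17.2 passed in 16 of 16 alternatives. The count of members past the threshold in C17.2 was 1 in all alternatives except TPM as deposited (5) and TPM rescaled over protein-coding genes (2), and in C3.2 it was 0 except under the latter rescaling (2). For the difference between the clones it was 0 without the filter on low values, and 0 to 1 when a library was left out.

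*RN7SK* passed under no alternative, of which quantile normalization could not have let it pass, since it sets the highest row of each library to 1 value. When a library was left out, its log2 fold change in C3.2 ranged from -0.0331 to 0.225, the mean change of its share from -0.0816 to 0.812 percentage points and the log2 ratio of *CCNT1* to *CCNT2* from -0.0145 to 0.0809. The same ranges included 0 for *CDK9* (-0.0459 to 0.0929) and *HEXIM2* (-0.0563 to 0.167) in C17.2 and for *CCNT1* (-0.128 to 0.0234) and *CCNT2* (-0.0705 to 0.0206) in C3.2, none of which had passed.

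Values near 0 in C3.2 turned positive for *CCNT1* (0.0114), *CCNT2* (0.0379) and *LARP7* (0.0038) on TPM as deposited, and for these (0.0469, 0.0735 and 0.0394) and *MEPCE* (0.0233) on TPM rescaled over protein-coding genes. *HNRNPA1* in C17.2 turned to 0.00048 on TPM as deposited and 0.0789 under quantile normalization, where *RPPH1* was at 0.372. The cause was not tested.

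Calls over all tested rows in C3.2 fell from 1773 to 74 when its libraries were fitted alone, and in C17.2 from 4261 to 3570. Without the filter, 1173 rows passed in C3.2 and 1098 for the difference, against 1546. With 2 libraries per group and no depth, small changes could not be resolved.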
